A study of Mus musculus with 9 samples.

Results

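Amino acid transporter genes were taken as the rows of the deposited expression table whose symbol is Slc1a, Slc3a, Slc6a, Slc7a, Slc36a, Slc38a or Slc43a followed by a number only. The rule found 60 of 37980 rows, with 59 symbols from 7 solute carrier families, since Slc38a9 is listed in 2 rows. The libraries were made from stem cells of the hair follicle, taken from C57BL/6J males aged 3, 19 or 24 months. Each age has 3 libraries, which makes 9. No other genotype or treatment is given in the labels. Skin of the back and belly was the source, and the sort took cells high in CD49f (integrin alpha 6) and positive for CD34. Replicate numbers run from 1 to 3 except at 24 months, where they run from 2 to 4. Whether different animals stand behind the replicates is not given in the labels, and p-values therefore speak only of spread among libraries, part of which may be technical. The 3-month libraries carry running numbers apart from those of the older libraries, so a batch difference cannot be told apart from the step from 3 months to the older ages.

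Amino acids cross membranes through carriers that differ in their substrates and in what drives them. Carriers of the SLC1, SLC6 and SLC38 families couple uptake to sodium, those of SLC36 to protons, and most SLC7 light chains exchange amino acids while bound to a heavy chain of the SLC3 family by a disulphide bridge. In keratinocytes such carriers feed protein synthesis, the making of glutathione and the signalling of amino acid supply to mTORC1. The 7 families are not uniform. Several SLC6 members carry neurotransmitters, taurine or creatine, and Slc43a3 encodes a carrier of nucleobases.

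Across age, a small number of these genes changed. Slc38a4, which encodes a sodium-coupled carrier of neutral and cationic amino acids and is known in the mouse as an imprinted gene expressed from the paternal allele, fell at 19 and at 24 months against 3 months. Slc43a1, the sodium-independent carrier of large neutral amino acids LAT3, fell at 19 months, and Slc7a2, the cationic amino acid carrier CAT2, fell at 24 months. No transporter gene rose at any comparison. The most abundant carriers, Slc6a6, Slc38a2 and Slc3a2, were not called at any comparison. These calls depend on the set of rows fitted with them: when every row that passed the filter was fitted, coding or not, none of them was kept.

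Because Slc38a4 and Slc43a1 were both lower at 19 months, the 250 bases before their annotated starts are shown from the RefSeq promoter table (build GRCm38.p6, which is not the build of the expression table). For Slc38a4 this is chr15:97055957-97056206 on the minus strand, the outermost of 3 starts in that table, and for Slc43a1 it is chr2:84840073-84840322 on the plus strand. Both read 5′ to 3′, and capitals mark matches on either strand to CCAAT, to the E-box CACGTG and to TATAAA.
Slc38a4: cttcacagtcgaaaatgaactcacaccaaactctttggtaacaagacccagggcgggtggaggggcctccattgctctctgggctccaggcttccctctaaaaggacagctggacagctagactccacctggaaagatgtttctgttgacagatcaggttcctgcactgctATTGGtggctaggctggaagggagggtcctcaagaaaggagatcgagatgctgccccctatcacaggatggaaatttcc
Slc43a1: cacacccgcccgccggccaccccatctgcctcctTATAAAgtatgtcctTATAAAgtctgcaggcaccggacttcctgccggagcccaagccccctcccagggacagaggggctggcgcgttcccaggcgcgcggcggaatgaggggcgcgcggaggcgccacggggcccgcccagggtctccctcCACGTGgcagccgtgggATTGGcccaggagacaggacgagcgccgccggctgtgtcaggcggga
A CCAAT box on the opposite strand stood in both, with its outer base 79 bases before the start in Slc38a4 and 47 in Slc43a1. That motif is common, in 33.8% of 32851 promoter windows of the same length. The E-box, 64 bases before the start of Slc43a1, was in 6.02% of windows. TATAAA, 216 and 201 bases before the start of Slc43a1, was in 12.4%. Neither window held TGATGNAA, a core searched for because elements of this kind serve the amino acid response factor ATF4, which was in 3.45% of windows. The windows also differed in composition, with 3 CpG and 52.8% GC in Slc38a4 against 24 CpG and 70.8% GC in Slc43a1. Over all windows the medians were 6 CpG and 52.4% GC. A match here is a description of letters and shows no binding, and the files do not show which start these cells used.

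Expression is given as FPKM, the fragment count of a gene divided by its transcript length and by the total mapped, a scale on which levels of different genes can be compared. The depth of the libraries is not known, so no detection limit can be set. Median FPKM over all tested genes lay between 10.01 and 11.3 in the 9 libraries. The totals were less even. Protein-coding rows summed to between 553400 (3 months replicate 3) and 738600 FPKM (24 months replicate 4). All rows summed to between 8705000 (24 months replicate 3) and 68770000 FPKM (3 months replicate 1). These totals split by age: the 3-month libraries held 68770000, 25020000 and 33110000 FPKM, and no older library passed 20770000 (19 months replicate 3). The part of this split in the changes against 3 months was not tested. The sorted population carried its defining transcripts, with Cd34 at 403 to 632, Itga6 at 72.7 to 117 and Krt14 at 3235 to 6619 FPKM. Krt15 was listed at 0 in all 9 libraries and Krt5 at 0 in every 19-month library, while Krt5 reached 2160.4 to 7576 FPKM at the other ages, so some zeros of the table are failed estimates. No transporter gene was at 0 in every library of an age while reaching 5 FPKM in every library of another. In sorted bulk RNA, fewer cells of a type and less RNA per cell cannot be told apart.

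Changes were tested by fitting log2(FPKM + 1) of the 9 libraries together with limma over 11509 protein-coding genes that reached 1 FPKM in at least 3 libraries. Of the 60 transporter rows, 29 entered the test. This scale understates the change of low genes. A gene is said to have risen or fallen where its Benjamini-Hochberg adjusted p, over all tested genes, was under 0.05.

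The levels covered a wide range. Slc6a6, the taurine transporter, stood at 415, 503 and 576 FPKM in the 3-month libraries, 447, 432 and 394 at 19 months and 430, 449 and 451 at 24 months. It alone made up 46.4% to 54.8% of the summed FPKM of all 60 rows. An exon of the GENCODE M21 gene Gm44981 overlaps its exons, so with strand use not given its level is uncertain to that extent. The ages overlapped, and neither 19 against 3 months (log2 change -0.22, 95% interval -0.52 to 0.08) nor 24 against 3 months (-0.15, -0.46 to 0.15) passed the test. Taurine, which it carries, is an organic osmolyte of the epidermis and is not built into proteins.

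Slc38a2, the carrier SNAT2 that takes up glutamine and alanine and is induced when amino acids run short, followed at 130 ± 19.0, 148 ± 9.70 and 150 ± 30.4 FPKM (SD, n = 3 each). Its close relative Slc38a1 was below 0.13 FPKM in every library. Slc3a2, the heavy chain also known as CD98, stood at 81.5 ± 4.45, 68.6 ± 2.45 and 87.4 ± 6.83 FPKM. Together, Slc6a6, Slc38a2 and Slc3a2 held between 68.7% and 79.1% of the summed FPKM in each library. Summed over all rows, the libraries held between 804 and 1053 FPKM.

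**Figure D1:**
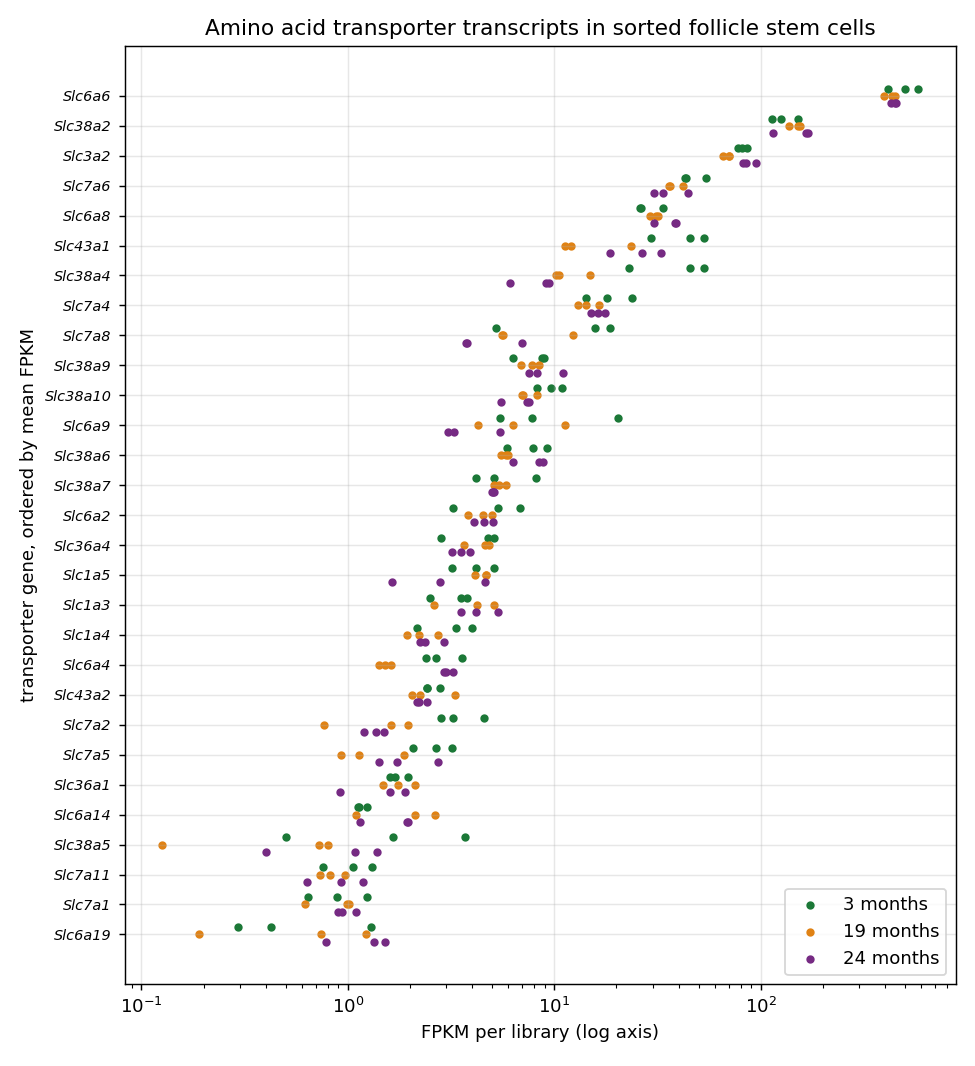
Levels of the 29 tested transporter genes, ordered by mean FPKM (vertical axis), as FPKM per library on a log axis (horizontal), with 1 point a library coloured by age. Slc6a6 lies far to the right of all others at every age, and the 3-month points of Slc38a4, Slc43a1 and Slc7a2 lie to the right of their 19-month points.

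The next genes in the order were Slc7a6 at a mean of 40.4 FPKM over the 9 libraries, Slc6a8 at 31.8, Slc43a1 at 28.1, Slc38a4 at 20.2 and Slc7a4 at 16.5. That order turned with age: at 3 months Slc43a1 (42.7) and Slc38a4 (40.6) had higher means than Slc6a8 (28.8), and at 24 months Slc38a4 (8.21) had a lower mean than Slc7a4 (16.3). Slc7a8, Slc38a9, Slc38a10 and Slc6a9 had means between 7.48 and 8.63 FPKM, closer together than the spread of each over libraries. The 3 Slc1 genes tested, Slc1a3, Slc1a4 and Slc1a5, lay between 1.63 and 5.33 FPKM in every library. They encode a glutamate carrier that also serves as a marker of skin stem cells in lineage tracing and the neutral amino acid exchangers ASCT1 and ASCT2.

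Of the 31 rows that were not tested, 6 were listed at 0 in all 9 libraries, among them Slc7a12, Slc36a3 and Slc38a8. The remaining 25 were low, with Slc7a7 and Slc38a3 the coding genes among them that passed 1 FPKM in any library, at up to 1.14 and 1.47. Slc1a2, which encodes the mainly astroglial glutamate carrier GLT-1, did not pass 0.0364 FPKM. Slc43a3, the neighbour in name of Slc43a1, did not pass 0.422. The second Slc38a9 row (ENSMUSG00000069056) stood at 1.11 to 2.26 FPKM and had no match in the annotation used for gene types, so it was not tested.

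At 19 against 3 months, 2 of the 29 tested transporter genes were lower and 0 were higher. Among all 11509 genes 0.964% were lower and 0.6% higher (1.56% in either direction), so the share among the transporters was above the background but rests on 2 genes. At an unadjusted p under 0.05 there were 6 transporter genes, a share of 20.7% against 15.7% of all genes. The median log2 change was -0.22 over the 29 genes and 0.01 over all tested genes, and 21 of 29 estimates were below 0 against 49.2% of all. In 8 of the 29 genes every 19-month library lay below every 3-month library, which 11.6% of all tested genes also showed, and in 0 of the 29 did every one lie above, against 11% of all. Those 8 were Slc38a10, Slc38a4, Slc3a2, Slc43a1, Slc6a4, Slc7a2, Slc7a5 and Slc7a6.

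At 24 against 3 months, 2 of 29 were lower and 0 higher, where 2.34% of all genes were lower and 1.5% higher (3.84% in either direction). At an unadjusted p under 0.05 there were 8 transporter genes (27.6%, against 21.6% of all). The median log2 change was -0.15 over the transporters and 0.00 over all genes, and 19 of 29 estimates were below 0 against 50.5% of all. Non-overlapping lower ranges were found in 3 of 29 genes, a share of 10.3% that lies near the 12% of all genes, and non-overlapping higher ranges in 0 of 29 against 10.6%. The 2 comparisons share the 3-month libraries, so their values are not independent.

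At 24 against 19 months, 0 of 29 transporter genes passed limma's test, against 0.93% of all genes (0.217% lower and 0.712% higher). Below 0 were 12 of 29 estimates, against 53.2% of all, and the median was 0.05 against -0.02. Every 24-month library lay below every 19-month library in 1 of 29 genes, Slc38a4, against 10.4% of all, and above in 3, Slc38a6, Slc3a2 and Slc6a4, against 7.94% of all. At an unadjusted p under 0.05 there were 4, Slc1a5, Slc3a2, Slc43a1 and Slc6a4, a share of 13.8% against 12.8% of all. Each alternative that kept all 9 libraries also called 0, and so did the fit of these ages alone. Without 19 months replicate 1 the count was 1, Slc43a1 (limma adjusted p = 0.0451).

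**Figure D2:**
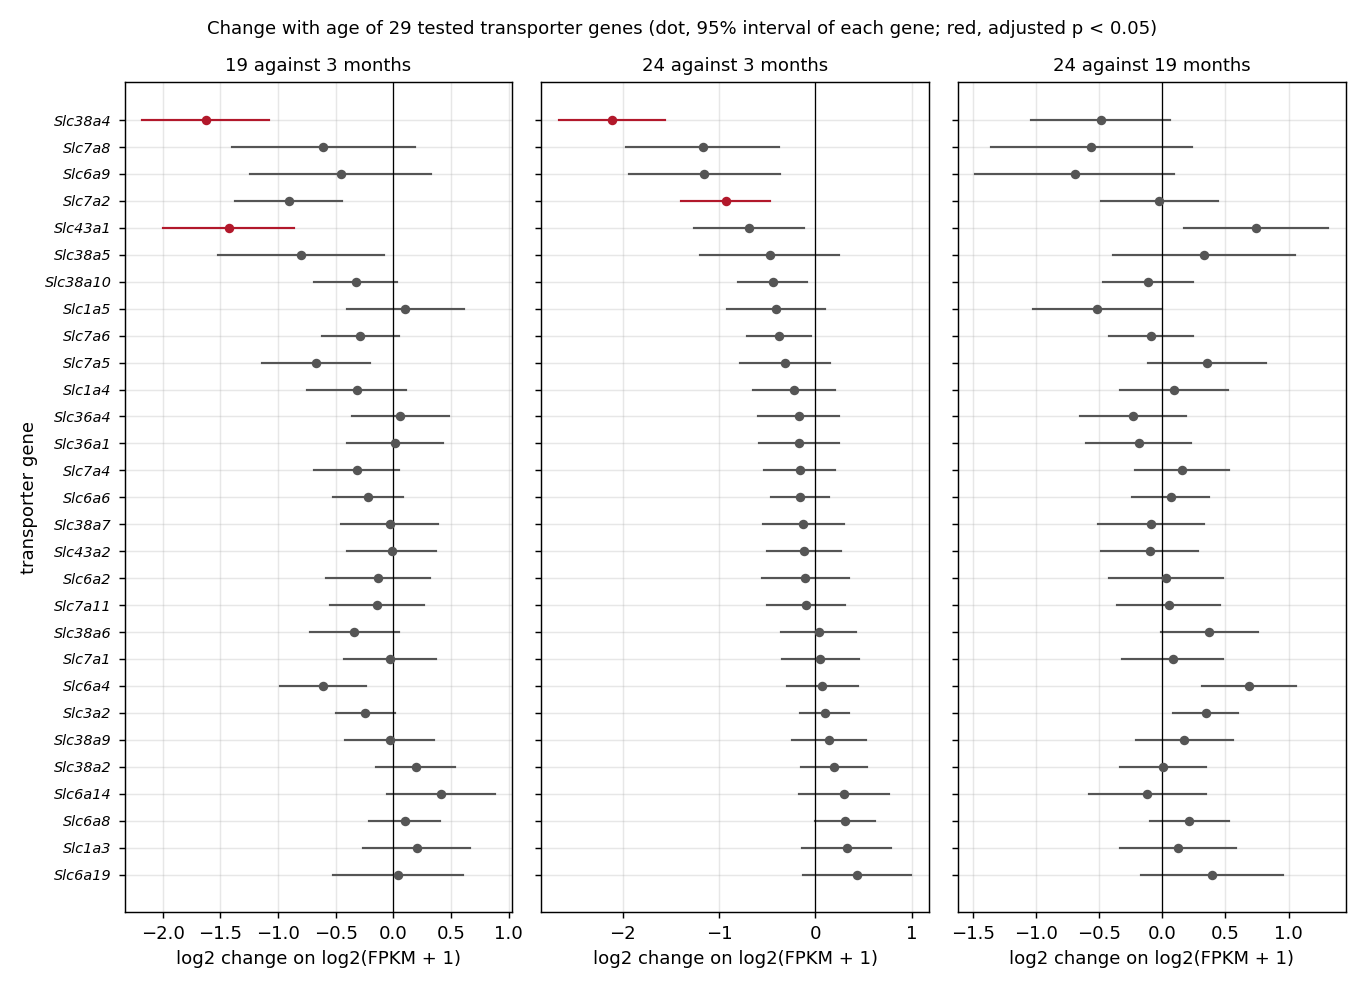
Log2 change on the log2(FPKM + 1) scale (horizontal) of the 29 tested transporter genes (vertical) for the 3 comparisons of ages, as the estimate with limma's 95% interval for that gene, in red where the adjusted p was under 0.05. Slc38a4 is red in the first and second panels, Slc43a1 in the first and Slc7a2 in the second, and no gene is red in the third.

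Slc38a4 (ENSMUSG00000022464) stood at 45.6, 53.4 and 22.9 FPKM in the 3-month libraries, at 14.9, 10.6 and 10.2 at 19 months and at 9.09, 9.41 and 6.13 at 24 months. The lowest 3-month library, replicate 3, was still above every older library, and the 24-month libraries all lay below the 19-month ones. Its mean fell from 40.6 ± 15.9 to 11.9 ± 2.64 and 8.21 ± 1.81 FPKM (SD, n = 3 each). The log2 change was -1.63 ± 0.26 at 19 months (SE, limma adjusted p = 0.00443) and -2.11 ± 0.26 at 24 months (adjusted p = 0.00111). Between 24 and 19 months it was -0.49 ± 0.26 and did not pass (adjusted p = 0.472). Both calls against 3 months were kept in all 9 fits that left out 1 library, with the highest adjusted p, 0.0325 and 0.0134, without 3 months replicate 2. In the fit of all rows that passed the filter they were lost, at 0.126 and 0.0521, and with no filter on low values the 19-month call was lost (0.0864).

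Slc43a1 (ENSMUSG00000027075) had 53.0, 45.7 and 29.3 FPKM at 3 months, 23.4, 12.03 and 11.3 at 19 months and 18.6, 32.7 and 26.7 at 24 months. The 19-month libraries were all below the 3-month ones, while the 24-month libraries overlapped both other ages. Its log2 change was -1.43 ± 0.27 at 19 against 3 months (SE, limma adjusted p = 0.0139), -0.69 ± 0.27 at 24 against 3 (adjusted p = 0.153) and 0.74 ± 0.27 at 24 against 19 (adjusted p = 0.241). The call at 19 months was lost in 4 of 9 fits that left out a library: 3 months replicate 1 (adjusted p = 0.0866) or 2 (0.0687), or 19 months replicate 2 (0.06) or 3 (0.0615). It was also lost with a robust prior variance (0.0569), with no filter (0.134) and with all rows fitted (0.163).

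Slc7a2 (ENSMUSG00000031596) was low, at 4.56, 3.25 and 2.82 FPKM at 3 months, 1.61, 1.96 and 0.768 at 19 months and 1.37, 1.197 and 1.5 at 24 months. Every older library lay below every 3-month library, and the older ages overlapped each other. CAT2 carries arginine, lysine and ornithine, and an exon of GENCODE M21 gene Gm26584 overlaps its exons, so with strand use not given its reads may not all be its own. On the log2 scale it fell by 0.93 ± 0.22 at 24 months (SE, limma adjusted p = 0.0287), and the estimate at 19 months, -0.91 ± 0.22, lay just past the threshold (adjusted p = 0.0501). The 24-month call was lost in 5 of 9 fits that left out a library: 3 months replicate 1 (adjusted p = 0.088) or 2 (0.0817), or 24 months replicate 2 (0.0608), 3 (0.0625) or 4 (0.0798). It was also lost with all rows fitted (0.101), with no filter (0.0935) and with the replicate number as a block (0.0983). The 19-month estimate passed with a robust prior variance (0.037), with coding rows rescaled to the same total (0.0342) and with the replicate block (0.0383).

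**Figure D3:**
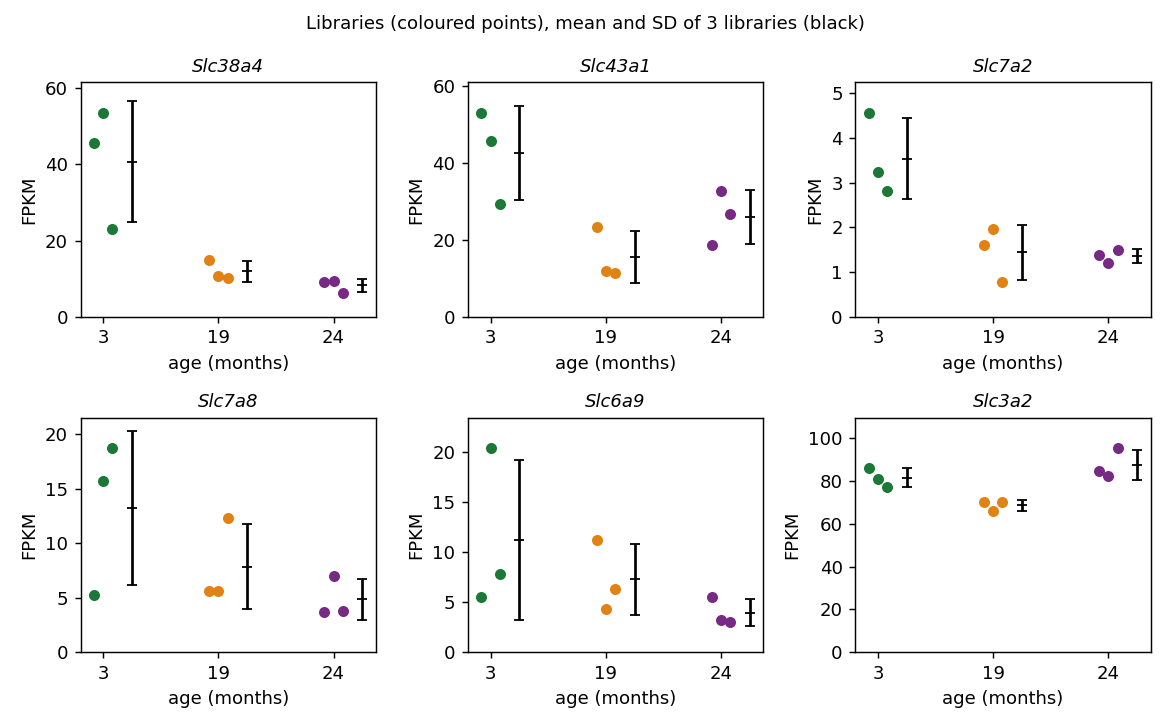
FPKM (vertical) by age in months (horizontal) for Slc38a4, Slc43a1, Slc7a2, Slc7a8, Slc6a9 and Slc3a2, with 1 coloured point a library and the mean with its SD over 3 libraries in black. For Slc38a4 and Slc7a2 all older libraries lie below all 3-month libraries, for Slc43a1 only those of 19 months do, and for Slc7a8 and Slc6a9 the ages overlap.

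Markers of other skin cells and of follicle compartments moved between the same ages. Beside the counts below, 0.964% of all tested genes were lower and 0.6% higher at 19 against 3 months. At 24 against 3 months these shares were 2.34% and 1.5%, and at 24 against 19 months 0.217% and 0.712%. Of 8 tested sebocyte markers, 5 were lower at 19 months, and at 24 months 6 were lower and Mgst1 was higher. The summed FPKM of the 9 sebocyte genes other than Mgst1, a sum formed after its values were seen, was 80.2 to 103 at 3 months, 33.1 to 44.1 at 19 and 31.7 to 33.5 at 24. That sum was mostly Scd1 and Fasn. With Mgst1 the list held 265 to 340, 241 to 295 and 353 to 464 FPKM. No sebocyte marker was at 0 in every library, and the wax synthase gene Awat1 was at 0 in 4 of the older libraries. Melanocyte markers summed to 37.7 to 46.2, 31.9 to 33.0 and 29.1 to 34.7 FPKM, with Tyrp1, 1 of 5 tested, lower at both older ages. Most of each melanocyte sum was Mitf, at 20.3 to 31.8 FPKM, which was not called. Endothelial markers summed to 11.8 to 14.2, 9.67 to 10.7 and 5.63 to 7.24 FPKM, with both tested genes lower at 24 months, Cldn5 at 0 in all 9 libraries and Pecam1, Cdh5 and Kdr below 0.45 FPKM. Immune markers summed to 31.3 to 67.4, 24.9 to 56.8 and 33.2 to 59.6 FPKM, sums that overlapped between ages and were mostly Cd74. Of 4 tested immune markers, Fcer1g was lower at 19 against 3 months (log2 -0.90, limma adjusted p = 0.0373) and higher at 24 against 19 months (1.45, adjusted p = 0.00403), with libraries that did not overlap. The 5 isthmus and infundibulum markers summed to 180.4 to 197, 156 to 166 and 204 to 266 FPKM, which did not overlap. These sums were mostly Plet1 (means 76.19, 84.33 and 101.2 FPKM) and Ly6a (56.65, 36.93 and 87.52). Krt79 and Lgr6 had lower means at 24 than at 3 months, and Lrig1 a slightly higher one. Of the 5 markers, limma called Krt79 lower at 19 months (adjusted p = 0.013), Lgr6 lower at 24 months (0.0113) and Ly6a higher at 24 against 19 months (0.00618). Of 10 tested hair follicle stem cell markers, Sox9 and Nfatc1 were higher at 19 months (limma adjusted p = 0.0348 and 0.0264) and Lgr5 was lower at 24 months (0.00581). Differentiated keratinocyte markers summed to 1689 to 2720, 2065 to 2800 and 1910 to 3607 FPKM at 3, 19 and 24 months, mostly Krtdap, and 0 of 5 tested were called. Of the fibroblast, adipocyte, muscle and nerve markers tested, 0 were called. The part of these cells in the falls of Slc38a4, Slc43a1 and Slc7a2 was not tested.

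The heavy chain gene Slc3a2 showed a small dip at 19 months that did not pass the test. Its values were 86.2, 80.9 and 77.4 FPKM at 3 months, 70.0, 65.8 and 70.0 at 19 months and 84.7, 82.4 and 95.2 at 24 months. The 19-month libraries were below all others. The log2 change was -0.24 ± 0.12 against 3 months (limma adjusted p = 0.338) and 0.34 ± 0.12 at 24 against 19 months (adjusted p = 0.22). The other heavy chain gene, Slc3a1, whose protein pairs with the cystine carrier of kidney and gut, did not pass 0.212 FPKM.

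Light chains give the pair its substrate. Slc7a6, y+LAT2, which exchanges cationic for neutral amino acids, was the most abundant, at 46.9 ± 6.19, 38.1 ± 3.42 and 36.2 ± 7.42 FPKM (SD, n = 3 each). It made up 64.8% to 83.9% of the summed FPKM of the 6 light chain genes whose proteins pair with Slc3a2. Its log2 change was -0.29 ± 0.16 at 19 months and -0.38 ± 0.16 at 24 months against 3 months (limma adjusted p = 0.39 and 0.178). LAT1, the leucine carrier encoded by Slc7a5 and abundant in many dividing cells, was low here, at 3.21, 2.06 and 2.69 FPKM at 3 months, 1.13, 1.87 and 0.922 at 19 months and 1.41, 1.74 and 2.74 at 24 months. All its 19-month libraries were below the 3-month ones, and the change of -0.67 ± 0.22 did not pass (adjusted p = 0.144). Slc7a11, the cystine carrier xCT that supplies cysteine for glutathione, lay between 0.636 and 1.31 FPKM, with log2 changes of -0.14 and -0.09 at 19 and 24 months (95% intervals -0.55 to 0.26 and -0.50 to 0.31).

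Slc7a8, LAT2, a broad carrier of neutral amino acids, had the second share of that sum, 9.3% to 27.8%. It stood at 5.21, 15.7 and 18.7 FPKM at 3 months, 5.63, 5.57 and 12.3 at 19 months and 3.72, 7.01 and 3.77 at 24 months. The 3-month replicate 1 lay with the older libraries. Its log2 change of -1.17 ± 0.37 at 24 against 3 months did not pass (limma adjusted p = 0.0905). It passed in 1 of 9 fits that left out a library, without 3 months replicate 1 (-1.68, adjusted p = 0.0159), and in 1 of 10 other alternatives, the replicate block (0.0336). Over the other fits the adjusted p reached 0.265, and the estimate was -0.85 without 3 months replicate 3. Summed over the 6 light chain genes, the libraries held 53.6, 72.8 and 67.1 FPKM at 3 months, 50.7, 45.7 and 51.1 at 19 months and 40.0, 55.2 and 37.8 at 24 months. As a ratio to Slc3a2 this was 0.80 ± 0.15, 0.72 ± 0.02 and 0.51 ± 0.14 (SD, n = 3 each), below 1 in every library. RNA levels do not give the amounts of the proteins, and the ratio was not tested.

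**Figure D4:**
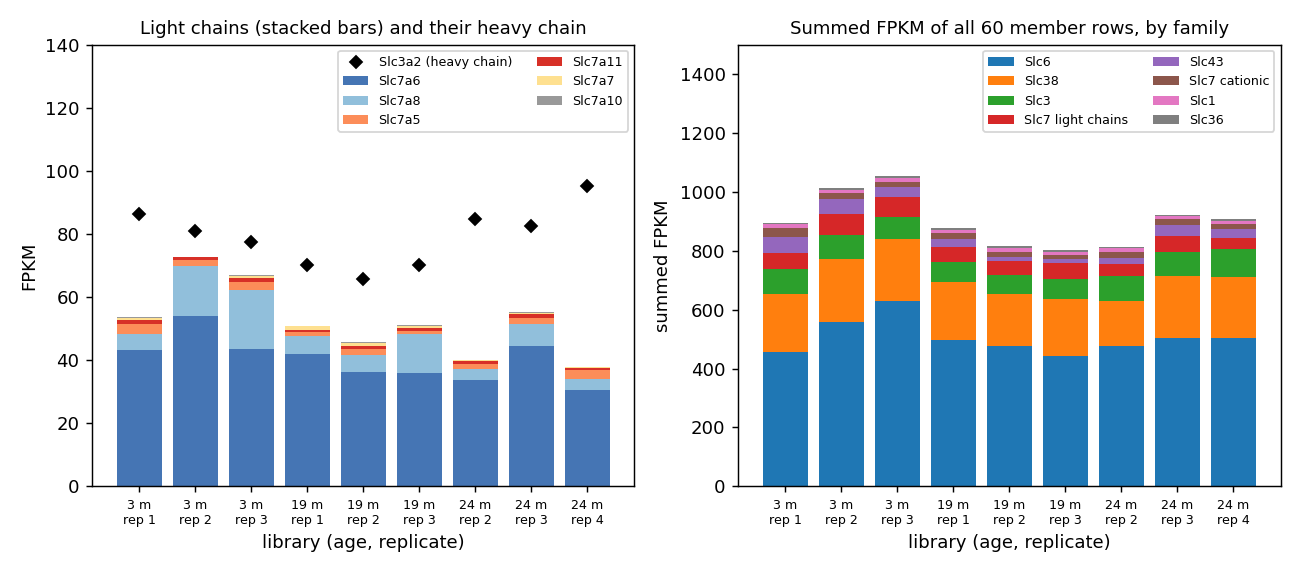
Left, FPKM (vertical) of 6 light chain genes as stacked bars and of the heavy chain gene Slc3a2 as diamonds in each library (horizontal); right, summed FPKM of all 60 transporter rows in each library, stacked by family. Slc7a6 fills most of each light chain bar and every diamond lies above its bar, and Slc6 genes make up 51% to 59.8% of each total.

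Cationic carriers other than Slc7a2 did not pass the test. Slc7a1, CAT1, the housekeeping arginine carrier of many cells, lay between 0.622 and 1.23 FPKM, with log2 changes of -0.03 and 0.05 (95% intervals -0.43 to 0.37 and -0.35 to 0.46). Slc7a4, a relative for which carrier activity is not settled, was the most abundant of the group, at 18.7 ± 4.83, 14.6 ± 1.74 and 16.3 ± 1.195 FPKM. Slc7a2, the called gene, came second to Slc7a4 in level at 3 months.

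Among the 7 tested Slc38 genes, 1 fell and 6 were not called. Slc38a10 was at 10.9, 9.69 and 8.28 FPKM at 3 months, 8.21, 6.999 and 7.07 at 19 months and 7.57, 7.38 and 5.53 at 24 months. All its older libraries lay below the 3-month ones, but neither estimate (-0.33 ± 0.17 and -0.44 ± 0.17) passed (limma adjusted p = 0.36 and 0.144). Slc38a9, the arginine sensor of the lysosome membrane that signals to mTORC1, had 7.98 ± 1.43, 7.73 ± 0.757 and 8.94 ± 1.88 FPKM, with 95% intervals for its log2 change of -0.42 to 0.35 at 19 months and -0.24 to 0.53 at 24 months. Slc38a2 had intervals of -0.15 to 0.53 and -0.14 to 0.54. Slc38a5, a glutamine carrier, ranged from 0.126 to 3.69 FPKM with ages overlapping.

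In the other families, Slc6a9, the glycine transporter GlyT1, stood at 5.49, 20.4 and 7.84 FPKM at 3 months, 11.2, 4.28 and 6.33 at 19 months and 5.49, 3.26 and 3.06 at 24 months. The single library at 20.4, 3 months replicate 2, was far above the rest. The change at 24 against 3 months, -1.15 ± 0.37, did not pass (limma adjusted p = 0.0928). Without that library it was -0.65 (adjusted p = 0.305), and without 3 months replicate 1 it was -1.51 and passed (0.0459), in 1 of 9 such fits. Exons of 3 other genes overlap those of Slc6a9 in GENCODE M21, among them B4galt2 and Ccdc24, so its value is uncertain. Slc6a4, the serotonin transporter, was at 3.57, 2.38 and 2.68 FPKM, then 1.42, 1.61 and 1.52, then 2.99, 3.24 and 2.92. Its 19-month libraries were below all others, with changes of -0.61 ± 0.17 against 3 months (adjusted p = 0.0934) and 0.69 ± 0.17 at 24 against 19 months (adjusted p = 0.0837). Slc6a8, the creatine transporter, had 28.8 ± 4.36, 30.6 ± 1.53 and 35.9 ± 4.67 FPKM, and its estimate of 0.31 ± 0.15 at 24 against 3 months did not pass (adjusted p = 0.23).

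The glutamate and neutral exchangers of the Slc1 family were not called. For Slc1a3 the log2 change was 0.20 (95% interval -0.26 to 0.66) at 19 months and 0.33 (-0.13 to 0.79) at 24 months. Slc1a5, ASCT2, which brings in glutamine, had a change at 24 against 19 months of -0.51 ± 0.24 that did not pass (limma adjusted p = 0.388), with 4.63, 2.79 and 1.63 FPKM at 24 months. Slc1a4 had estimates of -0.32 ± 0.20 and -0.22 ± 0.20. The proton-coupled lysosomal carrier gene Slc36a1 and the LAT4 gene Slc43a2 lay between 0.917 and 3.32 FPKM in every library, with estimates between -0.17 and 0.01 against 3 months.

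Genes that sense, make or use amino acids were set beside the transporters. Of 22 tested genes of the ATF4 response, 0 were called at 19 months, while 2 were lower and 1 higher at 24 against 3 months. Among all tested genes 1.56% were called at 19 months, and 2.34% were lower and 1.5% higher at 24 months, so these counts rest on few genes. Phgdh, the entry enzyme of serine synthesis, fell from 61.1, 70.2 and 59.8 to 44.5, 48.6 and 36.9 FPKM at 24 months (log2 -0.55 ± 0.14, limma adjusted p = 0.0356). Aldh18a1, an enzyme of proline synthesis, fell by 0.78 ± 0.19 (adjusted p = 0.0361), and for the stress-response gene Nupr1, which rose, the change was 0.73 ± 0.16 (adjusted p = 0.0215). Of 9 fits that each left out a library, 2 kept the call of Phgdh, 5 that of Aldh18a1 and 5 that of Nupr1. With all rows fitted all of them were lost (0.0922, 0.118 and 0.104), as they were with the replicate block (0.145, 0.106 and 0.0935). The list median was -0.03 and -0.11 at the 2 comparisons, against 0.01 and 0.00 for all genes.

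Of 22 enzymes of glutamine, glutamate, proline and branched-chain amino acids, 2 were lower at 19 months, where 0.964% of all tested genes were lower. Prodh, proline dehydrogenase, had 48.7, 39.8 and 34.2 FPKM at 3 months, 22.3, 16.5 and 11.4 at 19 months and 23.9, 38.6 and 28.5 at 24 months. It fell by 1.27 ± 0.22 at 19 months (limma adjusted p = 0.00827) and was not called at 24 months (adjusted p = 0.271). The fall was lost without 3 months replicate 1 (0.0529), with no filter (0.099) and with all rows fitted (0.141). Glul, which makes glutamine from glutamate, was the other, at 56.3 to 87.5, 16.3 to 21.2 and 41.9 to 75.4 FPKM. It fell at 19 against 3 months (log2 -1.95 ± 0.21, limma adjusted p = 0.000457). That call was kept in all 9 fits that left out a library and in 10 of 10 other alternatives, at up to 0.0462. Glul was higher at 24 than at 19 months (log2 1.67 ± 0.21, limma adjusted p = 0.0019). This rise was lost with all rows fitted (0.112) and with no filter (0.1). In Glul, Prodh and Slc43a1 the 19-month mean was the lowest of the 3 ages. The same held for Slc15a2 and for several uncalled transporter genes, among them Slc3a2, Slc6a4, Slc6a6 and Slc7a5. The called genes among these were picked at 19 against 3 months, so a low 19-month mean is partly built in. In other transporter genes, among them Slc38a4, Slc7a2, Slc7a6, Slc7a8, Slc6a9 and Slc38a10, the 24-month mean was the lowest. The share of all tested genes with the lowest mean at 19 months was not taken, so no shared pattern is drawn from this.

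No gene was called at any comparison among 27 tested genes of mTORC1 and its amino acid sensing (medians -0.05, 0.03 and -0.05 at 19 against 3, 24 against 3 and 24 against 19 months) or among 20 cytosolic aminoacyl-tRNA synthetases (medians 0.10, -0.13 and -0.16). Of all tested genes, 1.56%, 3.84% and 0.93% were called at these comparisons, so 0 calls in lists this short say little about either list. Of 11 tested amino acid and peptide carriers outside the 7 families, the peptide transporter gene Slc15a2 fell at 19 months, from 6.85, 7.53 and 9.83 to 2.03, 3.69 and 1.19 FPKM (log2 -1.51 ± 0.36, limma adjusted p = 0.0493), and 0 were called at the other comparisons. The call of Slc15a2 was kept in 3 of 9 fits that left out a library and in 4 of 10 other alternatives. It was lost with all rows fitted (0.24), with no filter (0.217) and with a mean FPKM of at least 5 (0.0605). A robust prior variance (0.158) and quantile normalisation (0.078) lost it too. At 24 months Slc15a2 stood at 6.26, 15.3 and 3.57 FPKM.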

How the data were processed

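The deposited table holds FPKM values that the authors made for each library, and the submitters' processing notes name TopHat, Cuffdiff and the build NCBIM37. For versions, settings and strand use, nothing is stated in the labels. Depth is unknown, and limits precision with the 3 libraries of each age. Gene types came from GENCODE M21 by Ensembl identifier (32916 of 37980 rows matched).

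Values were tested as log2(FPKM + 1) with limma 3.58.1 in R 4.3.3, with a mean-dependent prior variance, age as a factor and two-sided tests. Protein-coding rows that reached 1 FPKM in 3 or more libraries were fitted, and 36 rows at 0 throughout an age but at 5 FPKM or more throughout another were left out. The test was run on simulated data first. The members, lists and this fit were chosen with earlier results of these data known, and the coding fit was known to call more genes. Genes named were those called at a comparison, the 12 highest in mean FPKM, the 5 with the largest estimates at each comparison and a list chosen for role. A few members outside this rule, such as Slc38a6, Slc38a3 and Slc1a2, are named only in accounts of non-overlapping ranges or of low rows. Alternatives changed the pseudocount, filter, rows, prior, scaling, libraries and replicate block.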

Additional observations from a re-analysis of the deposited data

How the results depend on the processing

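The calls depended most on the rows fitted. Over 1620 alternative values of 87 changes of named genes, 1540 kept their side of the threshold, 70 lost a call, 10 gained one and 0 turned a called direction. Most of these changes were not called in the fit of coding rows, so keeping a side mostly meant staying uncalled. All 70 losses fell on the smaller set of called changes. With all rows that passed the filter, 40, 29 and 7 rows were called at 19 against 3, 24 against 3 and 24 against 19 months, against 180, 442 and 107, and 0 transporters at each. With the rows listed at 0 also left out, an alternative added after the data were seen, these were 27, 0 and 0 rows and 0 transporters. With no filter, 53, 118 and 0 genes were called, with 0, 1 and 0 transporters. With a mean FPKM of at least 5, 1 transporter was called at 24 against 3 months. Slc7a2, at a mean of 2.115 FPKM, was not fitted in that setting, so it could not be called there. At 24 against 19 months, 59 genes were called after quantile normalisation and 51 with coding rows rescaled.

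Same-numbered libraries correlated in their deviations from the age mean at -0.197 to 0.187, above 0.1 in 3 of 7 pairs. Differently numbered libraries of different ages correlated at -0.23 to 0.164. Deviations from the mean of 3 libraries cancel within each age, so these values cannot settle whether the replicate numbers pair the libraries. With the replicate block, 158 genes were called at 24 against 3 months. The cause of these changes was not tested. Leaving out 1 library gave 69 to 230, 136 to 456 and 20 to 216 genes, and 1 to 2, 1 to 3 and 0 to 1 transporters.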
